A study of Mus musculus with 11 samples.

Results

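The pro-survival proteins of the BCL-2 family and the effector proteins that they restrain set whether a thymocyte lives or dies by the mitochondrial route. The 9 mouse genes described here were chosen by name: the 6 pro-survival genes Bcl2, Bcl2l1 (BCL-XL), Mcl1, Bcl2l2 (BCL-W), Bcl2a1b and Bcl2a1d (A1) and the 3 effector genes Bax, Bak1 and Bok. They are 9 of the 54418 genes in the deposited table. RNA was sequenced from total thymocytes of 11 mice aged 8 to 12 weeks: 4 wild-type (wt) mice, 4 mice lacking Zmat3 (Zmat3-/-) and 3 mice lacking Puma, p21 and Zmat3 together (Puma-/-p21-/-Zmat3-/-, TKO). No mouse in these groups received a treatment. The deletions were carried in all cells of the body and the mice were kept on a C57BL/6-WEHI background. The TKO mice came from serial crosses of Zmat3-/- with Puma-/-p21-/- animals, so no group here lacks Puma or p21 without also lacking Zmat3. The study asked how the loss of these 3 TRP53 target genes acts on tumour suppression, and the comparisons are Zmat3-/- against wt, TKO against wt and TKO against Zmat3-/-.

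BCL-2, BCL-XL, MCL-1, BCL-W and A1 bind BAX and BAK, as well as the BH3-only proteins that start apoptosis, and so keep the outer mitochondrial membrane intact. PUMA, one of the proteins the TKO mice lack, is a BH3-only protein that can bind every pro-survival member. Once freed, BAX and BAK form pores through which cytochrome c leaves the mitochondrion and caspases are activated. In the thymus, immature CD4+CD8+ double-positive cells are known to depend on BCL-XL, BCL-2 is known for its role in the more mature single-positive cells, and MCL-1 is needed at several stages.

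The libraries held 17669715 to 80207003 estimated counts, and levels are given as CPM, counts relative to the library total, scaled so that libraries of different depth and composition can be compared. A floor of 3 counts, taken as the limit of detection, corresponds to 0.0403 to 0.167 CPM. Thymocyte identity was clear in every mouse: Cd4 lay between 959 and 1452 CPM and Cd8a between 1492 and 2027 CPM. Zmat3 transcripts stood at 9.88, 12.2, 26.8 and 26.8 CPM in wt mice 1 to 4, at 5.34 to 6.85 CPM in the Zmat3-/- mice and at 7.78 to 8.25 CPM in the TKO mice. Bbc3, which encodes PUMA, was at 12.9 to 15.2 CPM in the TKO mice against 16.8 to 20.1 CPM in wt mice, and Cdkn1a, which encodes p21, at 2.49 to 3.52 CPM against 3.53 to 10.4 CPM. All 3 targeted genes were thus lower in the TKO mice than in every wt mouse, although gene-level counts do not show which exons the transcripts came from. The wt mice fell into pairs: over 12956 genes the log2 levels of wt mice 1 and 2 correlated at 0.983 with each other and those of wt mice 3 and 4 at 0.984, but at only 0.889 to 0.922 across the pairs, while the 7 mutant mice correlated at 0.972 to 0.992. A further split put 5 mice apart, namely TKO mouse 1 and the mice numbered 1 and 2 of both other genotypes. These had a high count of Xist, the RNA of the inactive X chromosome, at 504.7 CPM or more, and the other 6 mice had 2.54 CPM or less. The sex of the mice is not in the labels. The split of the wt mice touches nearly every gene described here, so values are given per mouse and the comparisons are repeated within the mice of like Xist count.

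Members of the A1 group need care because the mouse carries 4 copies of this gene that are near-identical where they align, all on chromosome 9 (GRCm38). Bcl2a1c is annotated with 1 exon and 384 coding bases, against 2 exons and 516 coding bases in each of the others. Their coding sequences differ at 6 to 14 of the bases that align, which left 96.3% to 98.8% of bases identical. The first 90 coding bases of the 4 annotated transcripts, read 5′ to 3′ on the coding strand from the GENCODE M21 transcripts, show how little there is to tell the copies apart, with the 6 positions at which they differ in capitals.
Bcl2a1a: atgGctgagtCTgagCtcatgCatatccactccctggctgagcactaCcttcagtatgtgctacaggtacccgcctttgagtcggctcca
Bcl2a1b: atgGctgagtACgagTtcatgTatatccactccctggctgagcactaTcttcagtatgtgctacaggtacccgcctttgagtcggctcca
Bcl2a1c: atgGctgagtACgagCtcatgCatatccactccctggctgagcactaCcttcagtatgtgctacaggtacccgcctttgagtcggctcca
Bcl2a1d: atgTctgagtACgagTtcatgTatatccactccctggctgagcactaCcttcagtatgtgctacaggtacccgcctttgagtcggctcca
Of the 31-base words in the Bcl2a1b transcript, 88.8% also occur in a transcript of another gene. For Bcl2a1d the share is 89.1%, for Bcl2a1a 79.6% and for Bcl2a1c only 30.9%. For Bcl2l1, Bak1 and Bok it is 0.0%, for Mcl1 0.498% and for Bcl2 0.604%. It is 11.1% for Bax and 12.8% for Bcl2l2, mostly through readthrough genes annotated on the same strand, Gm45808 and Gm20521, which reached at most 0.0 and 0.581 CPM. How reads were divided among the A1 copies is therefore uncertain, and their sum is given beside the single copies. Bak1 lies within Ggnbp1 on the opposite strand, which was listed at 0.226 to 3.69 CPM, and whether the reads were counted by strand is not given in the sources used here. The words were compared on the same strand only, so the 0.0% of Bak1 does not cover its overlap with Ggnbp1.

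Mcl1 (chromosome 3, 95658788 to 95663176, + strand) encodes the short-lived survival protein MCL-1. Its levels were 497, 523, 387 and 394 CPM in wt mice 1 to 4. The Zmat3-/- mice had 491, 502, 518 and 558 CPM and the TKO mice 512, 616 and 568 CPM. Wt mice 3 and 4 were thus the lowest of the 11, but wt mouse 2 was above 4 of the 7 mutant mice, and the groups overlapped. The log2 fold change was 0.21 (95% interval -0.08 to 0.5) in Zmat3-/- against wt, with an edgeR adjusted p of 0.454. In TKO against wt it was 0.29 (-0.11 to 0.7, edgeR adjusted p 0.592), and in TKO against Zmat3-/- 0.09 (-0.14 to 0.31, adjusted p 0.983). The intervals leave room for a level up to 1.62-fold higher in TKO than in wt mice. Because these are bulk samples, fewer cells of a type and less RNA per cell cannot be told apart for Mcl1 or any other gene below.

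Bcl2l1 (chromosome 2, 152780668 to 152831728, - strand) encodes BCL-XL, the main survival protein of double-positive thymocytes. The wt mice had 282, 216, 179 and 163 CPM, the Zmat3-/- mice 165, 180.1, 180.1 and 181 CPM and the TKO mice 162, 149 and 237 CPM. Wt mouse 1 and TKO mouse 3 were the highest, and the Zmat3-/- mice lay within a narrow band at the level of wt mice 3 and 4. The log2 fold change was -0.24 (-0.61 to 0.13, edgeR adjusted p 0.492) in Zmat3-/- against wt and -0.26 (-0.76 to 0.25, adjusted p 0.668) in TKO against wt. TKO and Zmat3-/- mice were set apart by a log2 fold change of -0.01 (-0.23 to 0.2), near 0 and opposite in sign to the difference between their mean CPM.

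Bcl2 (chromosome 1, 106538178 to 106714274, - strand) is the founding member of the family. Its levels were 46.6, 52.2, 64.3 and 64.8 CPM in the wt mice, 56.6, 55.6, 59.2 and 60.0 CPM in the Zmat3-/- mice, and 60.9, 53.3 and 62.7 CPM in the TKO mice. All 7 mutant mice lay inside the wt range, between the low wt mice 1 and 2 and the high wt mice 3 and 4. The group means were 57.0 ± 9.03 (SD, n = 4), 57.8 ± 2.08 (SD, n = 4) and 59.0 ± 4.99 CPM (SD, n = 3). The edgeR log2 fold changes were 0.02 (-0.27 to 0.32), 0.00384 (-0.36 to 0.37) and -0.02 (-0.18 to 0.13) in the 3 comparisons, in the order given above. CPM were scaled over all 11 mice and each fold change over the mice of its own 2 genotypes, and the last of these values, near 0, has the opposite sign to the difference in mean CPM. The last interval corresponds to a level in TKO mice of 0.886 to 1.1 times that in Zmat3-/- mice.

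Bcl2l2 (chromosome 14, 54883377 to 54888234, + strand) encodes BCL-W, known mainly from the testis, gut and brain. It was low in all mice, from 8.27 to 12.6 CPM in wt, 9.3 to 12.5 CPM in Zmat3-/- and 10.2 to 11.4 CPM in TKO mice, and its 3 log2 fold changes lay between -0.05 and 0.00294. The interval in Zmat3-/- against wt ran from -0.45 to 0.34.

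Bcl2a1b (chromosome 9, 89199209 to 89207827, + strand) and Bcl2a1d (chromosome 9, 88723285 to 88731914, - strand) encode A1, whose genes are known targets of NF-κB in activated lymphocytes. Bcl2a1b counted 19.7, 25.1, 4.89 and 9.11 CPM in the wt mice, 20.2, 16.0, 16.2 and 11.2 CPM in the Zmat3-/- mice and 17.5, 17.2 and 7.93 CPM in the TKO mice. Bcl2a1d counted 14.6, 13.6, 3.28 and 3.38 CPM, then 11.1, 9.93, 7.95 and 8.63 CPM, then 8.28, 10.1 and 5.01 CPM in the same order. Both copies were several times higher in wt mice 1 and 2 than in wt mice 3 and 4, and every mutant mouse lay inside the wt range. The copy Bcl2a1a, not one of the 9, was likewise higher in wt mice 1 and 2, within 1.19 to 6.08 CPM in wt, and Bcl2a1c had 1 count in 1 mouse. Summed over the 4 copies, whose near identity is shown in the sequences above, the levels were 39.0, 44.7, 9.66 and 13.7 CPM in wt mice, 22.5 to 36.5 CPM in Zmat3-/- mice and 14.4 to 32.7 CPM in TKO mice. The log2 fold change of the sum was 0.14 (-0.9 to 1.17) in Zmat3-/- against wt and -0.05 (-1.39 to 1.28) in TKO against wt. With 1 surrogate variable in the fit the sum passed in Zmat3-/- against wt (0.48, edgeR adjusted p 0.0335), where 17.2% of all tested genes passed. These intervals without a surrogate variable are wide, and that of the TKO mice spans 0.381 to 2.43 times the wt level.

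Bax (chromosome 7, 45461697 to 45466898, - strand) encodes the effector that moves from the cytosol to mitochondria, and is itself a known TRP53 target. The wt mice had 81.0, 68.8, 40.4 and 39.0 CPM. The Zmat3-/- mice had 46.1, 42.4, 40.5 and 43.6 CPM and the TKO mice 45.7, 39.7 and 40.9 CPM. Wt mice 1 and 2 stood well above the other 9 mice, whereas wt mice 3 and 4 were at the level of the mutant mice. Bax had the lowest unadjusted p of the 9 genes in both comparisons with wt. Its log2 fold change was -0.4 (SE 0.227, 95% interval -0.92 to 0.12, edgeR p 0.115, adjusted p 0.424) in Zmat3-/- against wt and -0.48 (SE 0.275, -1.12 to 0.16, p 0.122, adjusted p 0.581) in TKO against wt. An exact permutation test of the mean log2 levels gave a two-sided p of 0.429 and 0.4, where the smallest p these groups allow is 0.0286. Between TKO and Zmat3-/- mice the log2 fold change was -0.08 (-0.29 to 0.13).

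Bak1 (chromosome 17, 27019810 to 27029009, - strand) encodes BAK, the effector that resides on mitochondria and is held there by MCL-1 and BCL-XL. Its levels were 103, 90.0, 60.6 and 59.2 CPM in the wt mice, 71.8, 68.6, 66.5 and 68.5 CPM in the Zmat3-/- mice and 69.2, 68.3 and 81.6 CPM in the TKO mice. As with Bax, wt mice 1 and 2 were the highest, but here wt mice 3 and 4 were the lowest and all mutant mice lay between the pairs. The log2 fold changes were -0.17 (-0.57 to 0.22), -0.14 (-0.62 to 0.34) and 0.03 (-0.1 to 0.17), and the last is the narrowest interval of any of the 9 genes, 0.933 to 1.12 times the Zmat3-/- level. Bak1 is 2.06 Mb from the deleted Cdkn1a, whereas Bax is 29.1 Mb from Bbc3 and Mcl1 63.3 Mb from Zmat3.

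Bok (chromosome 1, 93685660 to 93695764, + strand), an effector whose protein is kept low by degradation, had the fewest counts of the 9 genes. It had 74, 98, 1 and 21 counts in wt mice 1 to 4, that is 2.25, 2.43, 0.0415 and 0.808 CPM, from 1.04 to 1.94 CPM in the Zmat3-/- mice and from 0.753 to 1.89 CPM in the TKO mice. The single count in wt mouse 3 is below the 3-count limit of that library, 0.124 CPM. Its log2 fold changes were 0.11 (-1.61 to 1.83) and -0.06 (-2.19 to 2.08) against wt, so differences of several-fold in either direction could not be detected.

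**Figure D1:**
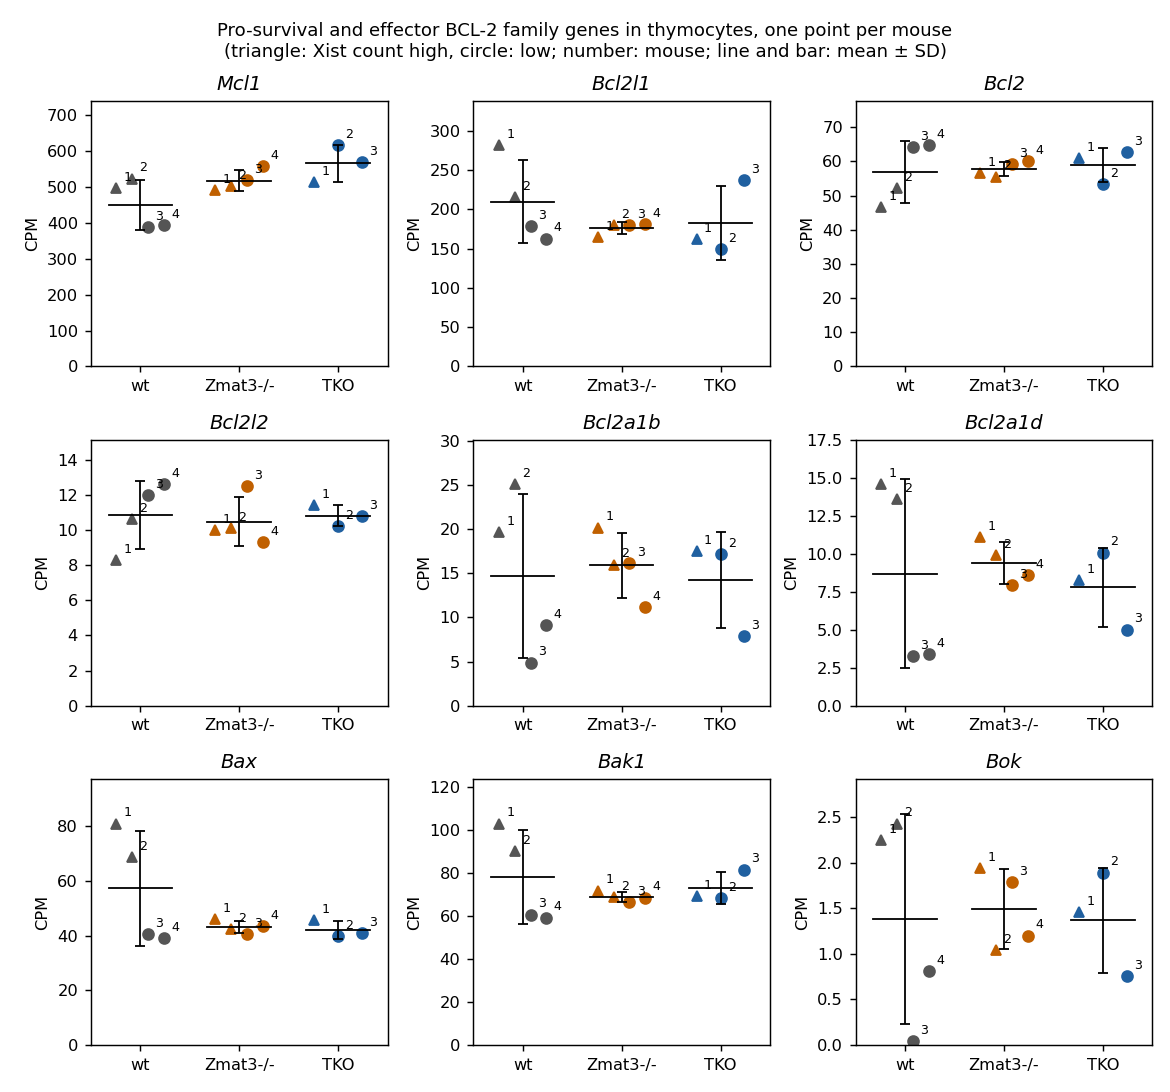
Levels of the 9 genes in CPM (y axes, starting at 0) in the 4 wt, 4 Zmat3-/- and 3 TKO mice, 1 point per mouse with its number, with the mean and SD of each genotype; triangles are mice with a high Xist count and circles mice with a low one. In Bax, Bak1, Bcl2a1b and Bcl2a1d the wt mice 1 and 2 stand above wt mice 3 and 4, and the wt SD exceeds that of the Zmat3-/- mice (for Bax 20.9 against 2.33 CPM).

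Across genotypes, no member passed the test. All 9 genes had counts high enough to be tested in each comparison, and 0 of 9 had an adjusted p under 0.05 in edgeR's quasi-likelihood test, with Benjamini-Hochberg adjustment over all tested genes. An unadjusted p under 0.05 was reached by 0 of 9 as well, where 16.1%, 10.3% and 4.5% of all tested genes reached it in Zmat3-/- against wt, TKO against wt and TKO against Zmat3-/-. At adjusted p under 0.05 DESeq2, which called 8.05%, 2.87% and 0.556% of all genes in the 3 comparisons, also called 0 of 9. The background is low, however: in Zmat3-/- against wt 0.764% of 13488 tested genes passed (54 higher and 49 lower), in TKO against wt 0.294% of 13260 and in TKO against Zmat3-/- 0.221% of 13124. With a fold threshold added, an absolute log2 fold change above 1.5, these shares were 0.319%, 0.241% and 0.122%. With shares this low, 0 of 9 is what the background gives, and reads as no result about these 9 genes in particular. With the replicate number as a term the 103 genes of Zmat3-/- against wt became 12, and the members called remained 0. The intervals carry more: they were narrow for Bcl2, Bak1, Bax, Mcl1 and Bcl2l1 in TKO against Zmat3-/-, and wide for the A1 copies and Bok throughout.

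**Figure D2:**
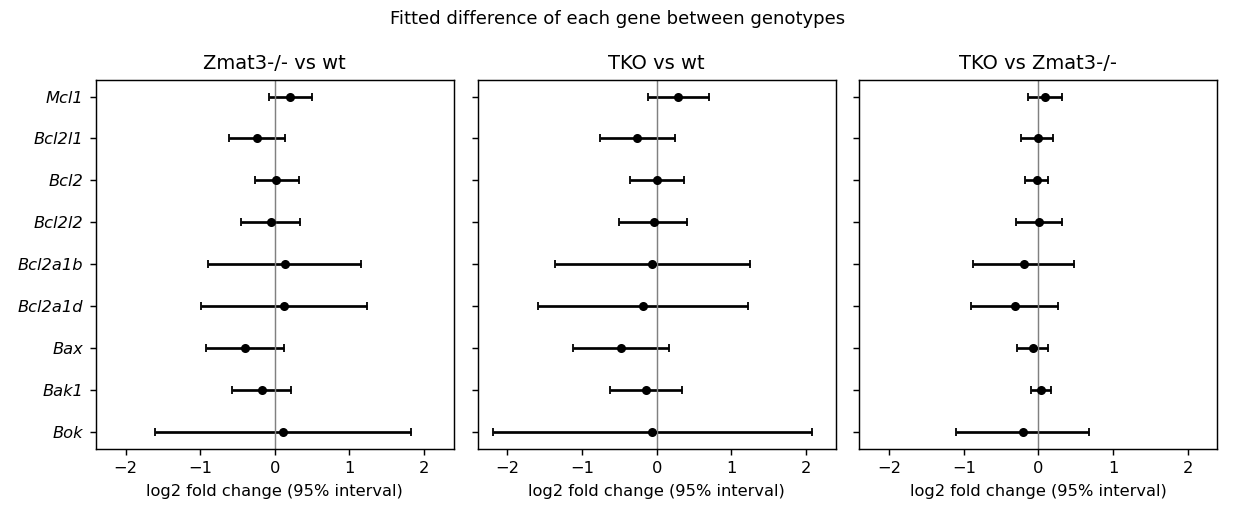
Log2 fold change of each of the 9 genes (points) with its 95% interval (bars) in the 3 comparisons, from edgeR fits of the 2 genotypes compared. Every interval includes 0, and the intervals of TKO against Zmat3-/- are shorter than those against wt, with standard errors from 0.0595 to 0.401 against 0.127 to 0.921.

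The median log2 fold change of the 9 genes was 0.024 in Zmat3-/- against wt, where that of all tested genes was -0.026. In TKO against wt it was -0.057 with -0.037 over all genes, and in TKO against Zmat3-/- -0.021 with -0.008. Of the 9 fold changes, 5 were positive and 4 negative in Zmat3-/- against wt, 2 positive and 7 negative in TKO against wt, and 3 positive and 6 negative in TKO against Zmat3-/-. The genotypes overlapped for each of the 9 genes in all 3 comparisons. Over all tested genes the mice of the 2 genotypes separated without overlap for 14.1%, 12.1% and 4.92%, so 0 of 9 is near this background.

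Levels of different genes can be set side by side only per length, so CPM were divided by the length of the merged exons in kb. On this scale Mcl1 was highest, at a mean of 148 CPM per kb over the 11 mice, followed by Bcl2l1 at 41.5, Bak1 and Bax both at 30.5, Bcl2a1b at 18.4, Bcl2a1d at 10.1, Bcl2 at 6.32, Bcl2l2 at 2.4 and Bok at 0.771. Divided by the longest transcript instead, Bcl2l1 came to 74.2 and Bax to 43.6 CPM per kb, with Bak1 at 30.7 and Mcl1 at 148. By merged exons Mcl1 was above Bcl2l1 in all 11 mice, with ranges of 113 to 180.2 and 32.5 to 61.6 CPM per kb that did not overlap. The ranges also did not overlap between Bcl2 and Bcl2l2 or between Bcl2l2 and Bok. Bak1 exceeded Bax in only 6 of 11 mice, so these neighbours cannot be ordered, and Bcl2a1d exceeded Bcl2 in 8 of 11. The other neighbours held their order in all 11 mice although their ranges overlapped. The Bcl2 transcript has long untranslated ends, so its low level per kb and its moderate CPM are the same counts on different scales.

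As a share of the 6 pro-survival genes per kb, Mcl1 made up 57.0% to 65.9% in wt mice, 63.7% to 69.5% in Zmat3-/- mice and 66.5% to 71.1% in TKO mice. For Bcl2l1 the share was 18.5% to 24.2% in the wt mice, 15.9% to 17.4% in the Zmat3-/- mice and 12.8% to 21.3% in the TKO mice. The 4 Zmat3-/- mice thus lay below all wt mice in the Bcl2l1 share, while TKO mouse 3 fell within the wt range. Bcl2 made up only 2.0% to 4.09% in any mouse. Among the effectors, Bax took 49.7% to 53.9% in wt mice, 47.3% to 48.7% in Zmat3-/- mice and 43.1% to 49.6% in TKO mice, with Bak1 making up nearly all of the rest and Bok at most 1.88%. The Bax share was highest in the 4 wt mice, with a mean of 51.8% ± 1.99 (SD, n = 4) against 48.2% ± 0.641 (SD, n = 4) in the Zmat3-/- mice and 46.3% ± 3.24 (SD, n = 3) in the TKO mice. These shares are descriptions and were not tested. Of all tested single genes, 14.1% in Zmat3-/- and 12.1% in TKO against wt separated without overlap. No such background was computed for shares.

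**Figure D3:**
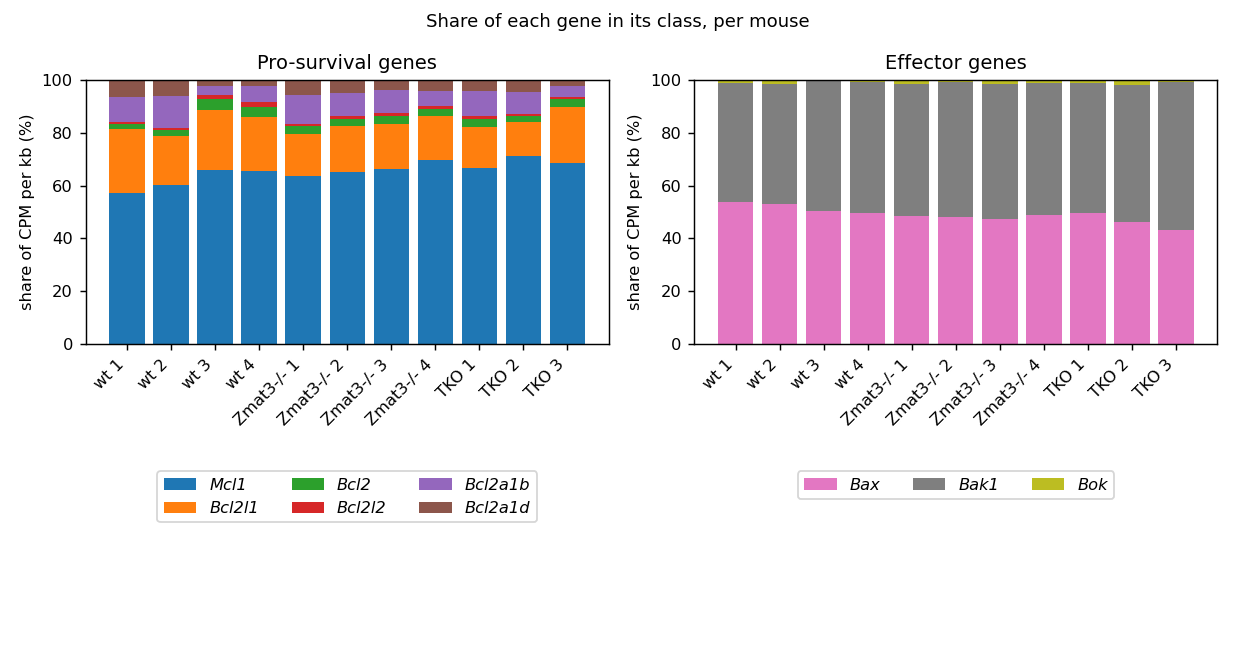
Share of each gene in the CPM per kb of its class (y axis, percent) in every mouse, with the 6 pro-survival genes on the left and the 3 effectors on the right. Mcl1 is the largest pro-survival part in every mouse at 57.0% to 71.1%, and of the effector part Bax takes 43.1% to 53.9% and Bak1 44.8% to 56.2%.

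Summed per kb, the pro-survival genes came to 255, 255, 172 and 176 CPM per kb in wt mice 1 to 4, to 226 to 235 in the Zmat3-/- mice and to 225 to 254 in the TKO mice. The effectors came to 95.3, 82.4, 50.8 and 49.8 in the wt mice, 54.3 to 60.1 in the Zmat3-/- mice and 54.6 to 60.3 in the TKO mice. Wt mice 1 and 2 were the highest and wt mice 3 and 4 the lowest of the 11 mice in both sums. Pro-survival over effector transcript was 2.67, 3.09, 3.38 and 3.53 in the wt mice, 3.75, 4.03, 4.22 and 4.14 in the Zmat3-/- mice and 3.85, 4.65 and 4.03 in the TKO mice. All 7 mutant mice were above all 4 wt mice. This ratio was looked at after its parts were known and is given as a description without a test. Single genes separated without overlap for 14.1% of all tested genes in Zmat3-/- and 12.1% in TKO against wt. No such share was computed for ratios.

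The separation did not depend equally on all parts. With the longest transcript as the length the ratios were 2.58 to 3.39 in the wt mice, 3.49 to 3.98 in the Zmat3-/- mice and 3.57 to 4.26 in the TKO mice, still without overlap with wt. Without Mcl1 they were 1.15 to 1.23, 1.26 to 1.43 and 1.27 to 1.34. Without the A1 copies the Zmat3-/- mice, at 3.13 to 3.72, overlapped with the wt mice, at 2.24 to 3.23, whereas the TKO mice, at 3.32 to 4.05, did not. Mcl1 over Bax and Bak1 came to 1.54 to 2.34 in the wt mice, with 2.43 to 2.91 in the Zmat3-/- mice and 2.59 to 3.36 in the TKO mice. Bcl2l1 over Bax and Bak1 overlapped between all genotypes, at 0.581 to 0.767 in the wt mice, 0.609 to 0.737 in the Zmat3-/- mice and 0.607 to 0.864 in the TKO mice. Bcl2 over Bax ran from 0.0991 to 0.286 in wt mice, and all 7 mutant mice, at 0.212 to 0.264, lay inside that range.

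**Figure D4:**
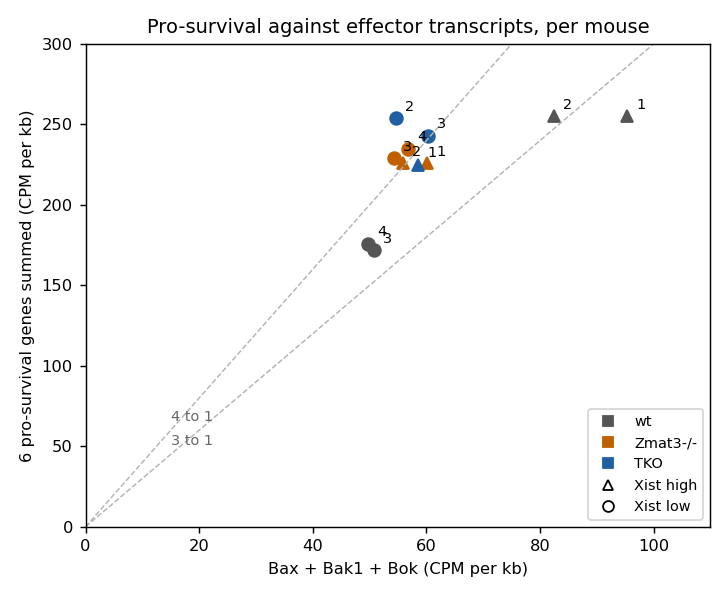
Sum of the 6 pro-survival genes (y axis) against the sum of the 3 effectors (x axis), both in CPM per kb, 1 point per mouse with its number, triangles for a high and circles for a low Xist count; dashed lines mark ratios of 3 to 1 and 4 to 1. The mutant mice lie together, wt mice 1 and 2 to their right at 95.3 and 82.4 and wt mice 3 and 4 below them at 172 and 176.

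The comparisons were therefore repeated within mice of like Xist count, a split made after seeing the data. In the wt mice the mean of mice 1 and 2 was 1.88 times that of mice 3 and 4 for Bax, 1.61 times for Bak1, 1.46 times for Bcl2l1, 1.31 times for Mcl1, 3.19 times for Bcl2a1b and 4.23 times for Bcl2a1d, and only 0.766 times for Bcl2 and 0.767 times for Bcl2l2. The same split of the Zmat3-/- mice gave 1.05 for Bax, 1.04 for Bak1, 0.956 for Bcl2l1, 0.923 for Mcl1, 1.32 for Bcl2a1b and 1.27 for Bcl2a1d. For Bcl2 and Bcl2l2 it gave 0.942 and 0.919. For all 8 of these genes the fold between the Xist sides was further from 1 in wt than in Zmat3-/- mice, and what else set the wt pairs apart is not given in the labels.

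Since the split was made after the wt pairs were seen to differ in these genes, the calls on each side restate that difference and are given as descriptions. In the mice with a high Xist count, 3 of 9 members passed in Zmat3-/- against wt, a smaller share than the 42.1% of all tested genes that passed. They were Bax (log2 fold change -0.73), Bak1 (-0.43) and Bcl2l1 (-0.5), each at a lower level in the Zmat3-/- mice. In the mice with a low Xist count another 3 of 9 passed, a share near the 28.2% of all tested genes. They were Mcl1 (log2 fold change 0.45), Bcl2a1d (1.3) and Bcl2a1b (0.95), each at a higher level in the Zmat3-/- mice. The sum of the A1 copies had a log2 fold change of 1.08 there. The difference between these fold changes had an adjusted p under 0.05 in 7 of 9 members, Bok and Bcl2l2 being the exceptions, where 44.2% of all tested genes passed. Within wt this split is that of mice 1 and 2 from mice 3 and 4, which prompted it, so the test restates that difference and is no independent support for it. It was -0.8 (SE 0.144) for Bax and -1.7 (SE 0.213) for Bcl2a1d, with adjusted p of 0.00194 and 0.00039. The mean difference between Zmat3-/- and wt given above thus averages over wt pairs that lie on either side of all 4 Zmat3-/- mice for Bcl2, Bcl2a1d, Bax, Bak1 and Bok and for the summed A1 copies.

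**Figure D5:**
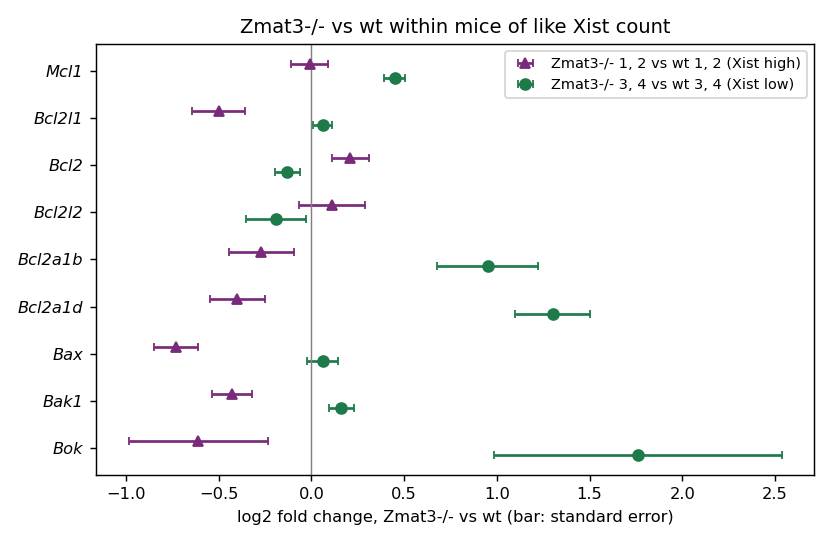
Log2 fold change of Zmat3-/- against wt (x axis) with its standard error (bars) for each of the 9 genes, in the mice with a high Xist count (triangles, 2 mice of each genotype) and in those with a low one (circles, 2 of each). Bax lies at -0.73 in the first set and 0.06 in the second, and Bcl2a1d at -0.4 and 1.3. The sets were split after the wt pairs were seen to differ.

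In TKO against wt the same split compared 1 TKO mouse with 2 wt mice at high Xist and 2 with 2 at low Xist. At high Xist Bax was called in 1 of 9 members (log2 fold change -0.69, edgeR adjusted p 0.046), where 20.2% of all genes passed. This p rests on the spread between the 2 wt mice, moderated by that of other genes, since the lone TKO mouse adds none. The split was also made after these wt mice were seen to be high in Bax, so the value is a description. At low Xist 0 of the members passed, where 3.02% of all genes did, and Bax had a log2 fold change of -0.06. The difference between the sides was 0.57 for Bcl2 and -0.69 for Bak1, the members with an adjusted p under 0.05, where 23.1% of genes had one. It rests on the same lone TKO mouse and the same wt pairs, and is likewise a description. In TKO against Zmat3-/- it passed for 0 of 9 members and for 0.0% of genes by edgeR, and 0 members had an unadjusted p under 0.05.

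The BH3-only genes, whose products start the pathway by binding the members above, included 0 of 7 that passed edgeR's test after adjustment in either comparison with wt, and 0 of 6 in TKO against Zmat3-/-. At an unadjusted p under 0.05 there were 2 in Zmat3-/- against wt, 4 in TKO against wt and 3 in TKO against Zmat3-/-, beside the 16.1%, 10.3% and 4.5% of all tested genes given above. The deleted Bbc3 itself was among those in both TKO comparisons (edgeR p 0.0156 against wt and 0.0179 against Zmat3-/-). DESeq2 called Bcl2l11 higher in both mutants than in wt and Pmaip1 higher in Zmat3-/- than in wt, and 0 in TKO against Zmat3-/-. Over all genes it called 8.05%, 2.87% and 0.556% in the 3 comparisons. Among all tested genes 14.1%, 12.1% and 4.92% separated without overlap in the 3 comparisons. Bcl2l11, which encodes BIM, the BH3-only protein best known for the deletion of self-reactive thymocytes, lay at 73.6 to 101 CPM in wt, 118 to 134 CPM in Zmat3-/- and 152 to 164 CPM in TKO mice, without overlap. Its log2 fold change was 0.5 (edgeR adjusted p 0.103) in Zmat3-/- against wt, 0.78 (adjusted p 0.138) in TKO against wt and 0.28 (adjusted p 0.615) in TKO against Zmat3-/-. Pmaip1, which encodes NOXA, a partner of MCL-1 and a TRP53 target, had 3.27 to 6.02 CPM in wt, 8.64 to 11.7 CPM in Zmat3-/- and 7.46 to 9.0 CPM in TKO mice. Its log2 fold change was 1.02 (adjusted p 0.0725) in Zmat3-/- against wt. The deleted Bbc3 had the lowest value of this group in both TKO comparisons, at -0.48 and -0.38, and Bik had it in Zmat3-/- against wt, at -0.62. The median log2 fold change of the tested BH3-only genes, Bbc3 included, was -0.11, -0.2 and -0.01 in the 3 comparisons.

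Of 9 further BCL-2-like genes, 6 were tested and 0 passed in edgeR, with 2, 1 and 0 at an unadjusted p under 0.05 in the 3 comparisons. Of all tested genes 16.1%, 10.3% and 4.5% reached that p. In Zmat3-/- against wt, where DESeq2 called 8.05% of all genes, it called 2 of these BCL-2-like genes, Bcl2l12 lower and Bnip3l higher. Their lowest values were those of Bcl2l12 against wt, at -0.81 in Zmat3-/- and -0.76 in TKO mice, and their highest those of Bcl2l13, at 0.35 in both. Of 8 genes that act after pore formation, among them Cycs (cytochrome c), Apaf1 and the caspases, 0 passed, with values against wt from Htra2 at -0.2 and -0.35 to Xiap at 0.34 and 0.44. Of 9 genes that govern MCL-1 stability or hold BAX and BAK, 0 passed, with values against wt from Tmbim6 at -0.38 and -0.31 to Huwe1, an MCL-1 ubiquitin ligase, at 0.37 and 0.46. Of 8 genes for upstream signals, among them Trp53 and Il7r, 0 passed. DESeq2 also called 0 in these last 3 groups, and at an unadjusted p under 0.05 edgeR had 1 gene after pore formation and 1 upstream gene, both in Zmat3-/- against wt, and 0 elsewhere. Among the upstream genes the highest values were those of Stat5b at 0.3 in Zmat3-/- and Tcf7 at 0.29 in TKO against wt.

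Immediate-early genes are switched on within minutes of a stimulus. Of 13, 3 were higher in both mutants than in wt in edgeR and 0 were lower, and DESeq2 called 6 higher and 3 lower in Zmat3-/- and 5 higher and 2 lower in TKO mice. Over all tested genes edgeR called 0.764% in Zmat3-/- and 0.294% in TKO against wt, and DESeq2 8.05% and 2.87%, both directions together. Of the fold changes, 9 were positive and 4 negative in each comparison with wt, and Egr2 had the lowest, at -0.58 and -0.67. Fosb lay at 1.96 to 4.42 CPM in wt, 23.2 to 46.5 CPM in Zmat3-/- and 18.9 to 61.3 CPM in TKO mice, with edgeR adjusted p of 0.00226 and 0.0146. Dusp1 lay at 14.3 to 33.3, 105 to 123 and 107 to 154 CPM (adjusted p 0.0148 and 0.035), and Nr4a1 at 76.7 to 112, 167 to 220.1 and 206 to 229.9 CPM (adjusted p 0.0191 and 0.0354). The summed level of the 13 genes was 839 to 1349 CPM in wt and 1698 to 2105 CPM in the mutant mice, and within wt it was higher in mice 1 and 2, as Mcl1 was. The part of this group in the levels of Mcl1, whose own transcript turns over quickly, was not tested.

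Markers of cell types were read in the same way, and 0 of the 59 tested markers passed in edgeR in any comparison. At an unadjusted p under 0.05 there were 11 in Zmat3-/- against wt, 3 in TKO against wt and 0 in TKO against Zmat3-/-, where 16.1%, 10.3% and 4.5% of all tested genes reached it. DESeq2 called 7, 1 and 0 markers, where it called 8.05%, 2.87% and 0.556% of all genes. In Zmat3-/- against wt these were Cd8a, Rag2 and Cd3e, lower, and Cd69, Adgre1, Cybb and Col3a1, higher. In TKO against wt it was Cd69, higher. The 5 T cell markers summed to 6159 and 5546 CPM in wt mice 1 and 2, to 4020.4 and 3818 CPM in wt mice 3 and 4 and to 3729.8 to 4521 CPM in the mutant mice, highest in the 2 wt mice in which Bax was also highest. The 10 double-positive markers summed to 9074 and 10090.4 CPM in wt mice 1 and 2, 13055 and 12059 CPM in wt mice 3 and 4 and 10315 to 14772 CPM in the mutant mice, lowest in the 2 wt mice in which Bcl2 was also lowest. Double-negative markers summed to 210.2 to 366 CPM in wt and 309 to 518 CPM in mutant mice, and mature single-positive markers to 707 to 896 and 698 to 852 CPM. B cell markers ranged from 50.9 to 109 CPM in wt and 50.2 to 69.0 CPM in mutant mice, myeloid markers from 159 to 269.6 and 147 to 314 CPM, and markers of epithelium and stroma from 188 to 308 and 207 to 259 CPM, each highest among the wt mice in mice 1 and 2. Erythroid markers varied most, from 634 to 5926 CPM, with wt mouse 3 highest. No marker of these lists was at 0 in any mouse, and the myeloid Mpo had the lowest maximum, with a range of 0.166 to 0.923 CPM. The part of cell makeup in the levels of the 9 genes was not tested.

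The genes whose log2 level followed that of Bax most closely over the 11 mice, among 12956 compared, were Mien1 (Pearson r 0.991), Psmg3 (0.99) and Tnfrsf18 (0.989). Mien1 had 85.6 and 64.0 CPM in wt mice 1 and 2 and 29.2 to 40.3 CPM in the other mice. Without wt mice 1 and 2 the values of r over the other 9 mice were 0.874, 0.792 and 0.886. These points share their libraries, and the likeness is given as a description.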

How the data were processed

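Thymus RNA of 11 mice was sequenced as paired ends (TruSeq RNA Prep Kit v2), and the authors quantified it with Salmon through nf-core/rnaseq on GRCm38.p6 and deposited 1 table of estimated counts per gene, not normalized. Submitters' processing notes also name bcl2fastq and DESeq2 1.40.0. Estimated counts were rounded to whole numbers here. Of the 54418 gene identifiers, 54166 matched GENCODE M21, which gave coordinates and lengths and is older than the annotation the authors used. The totals were 17669715 to 80207003 counts a mouse.

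A gene was tested if its count, after scaling to the depth of the smallest library, reached 20 in a number of mice equal to the smaller group. Not tested were Xist, rRNA, chromosome Y genes and immunoglobulin genes without a coding product. Each comparison was fitted on its 2 genotypes in edgeR 4.0.16 (quasi-likelihood F-test, TMM factors, two-sided, R 4.3.3) with no covariate, since the sex term of the study is not in the labels. CPM used TMM-scaled totals and log2 CPM a prior count of 2. Intervals cover 95%. Single genes were also tested by exact permutation of the log2 levels. The fit was first tested on simulated data. Alternatives were DESeq2 1.42.0, RLE size factors, other filters, 1 fit of all genotypes, 1 surrogate variable (sva 3.50.0), the Xist level as a term, the replicate number as a block, each mouse left out, and, chosen after seeing the data, only mice with high or low Xist. Shared sequence was searched as words of 31 bases on the same strand.

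In same-numbered mice of Zmat3-/- and wt the deviations from the group means correlated at 0.127 to 0.339 over 4 pairs. Only 2 of the 4 Zmat3-/- mice correlated best with the wt mouse of their own number, and the labels state no pairing. Mice 1 and 2 of both genotypes also share the high Xist side, so these correlations cannot show a pairing by number. The replicate number entered an alternative fit only, whose count of 12 genes is given beside the main one. The labels name separate mice, and p-values measure the spread between them. Counting limits cover counting error only. The members, gene lists and tests were chosen with earlier results of these data known. The genes named are the 9 members, the other A1 copies, list genes past the threshold or with the highest or lowest fold change of their list and the 3 genes most like the member with the smallest p. The tested neighbours of Bak1, also covered by the rule, are not reported here. The ratios, Cd4, Cd8a, Bnip3l, Mpo and the markers called by DESeq2 were added after their values were seen.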

Additional observations from a re-analysis of the deposited data

Results flagged for a closer look

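Among the 18 groups of 4 mice (9 genes in wt and Zmat3-/- mice), 1 held a mouse far from the rest by Dixon's test: Zmat3-/- mouse 1 had 165 CPM of Bcl2l1, below the other 3 at 180.1, 180.1 and 181 CPM. Chance alone gives such a result in about 1 in 20 groups.

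The other values concern the fold change in mice with a high minus that in mice with a low Xist count, tested as an interaction in edgeR. In TKO against wt it was 0.57 for Bcl2 and -0.69 for Bak1. In Zmat3-/- against wt it was 0.34 for Bcl2, -0.57 for Bcl2l1, -0.46 for Mcl1, -1.23 for Bcl2a1b, -1.7 for Bcl2a1d, -0.8 for Bax, -0.59 for Bak1 and -1.4 for the 4 A1 copies summed. Between 23.1% and 44.2% of all tested genes passed the same test in these comparisons, so the members are among many. In each case the wt mice of the 2 sides differed, and the part of sex, batch or cell makeup in that difference cannot be told apart, since the labels give none of them.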

How the results depend on the processing

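No alternative other than the split by Xist count called a member: of 414 member values, 0 passed, 361 kept their direction and 53 changed it, and the lowest adjusted p was 0.0803 (Bcl2a1d in Zmat3-/- against wt with 1 surrogate variable). The summed A1 copies did pass with that variable in Zmat3-/- against wt (0.48, adjusted p 0.0335), and at low Xist (1.08, adjusted p 0.00121). Over all genes, the number passing in TKO against wt, 39, became 381 with DESeq2, 61 with no filter, 216 with all 3 genotypes in one fit, 20 with 1 surrogate variable and 16 to 42 when a mouse was left out. That in Zmat3-/- against wt, 103, became 1085, 55, 240 and 2315 in the same order, 202 with the Xist level as a term, 12 with the replicate block and 17 to 105 without a mouse. It fell by over 1.5 times without any 1 of wt mice 2, 3 and 4 (46, 37 and 33 genes) or Zmat3-/- mice 1 to 4 (17, 20, 21 and 18), and in TKO against wt without TKO mouse 1, 2 or 3 (16, 16 and 18). That in TKO against Zmat3-/-, 29, became 73 with DESeq2, 90 with no filter and 16 in one fit. The causes were not tested. The replicate number as a block gave 16 and 21 genes in TKO against wt and TKO against Zmat3-/-, where the lowest correlations of same-numbered mice were 0.073 and 0.01. The block changed the call of no member. Under the replicate block the direction changed for Bcl2l2 (0.06) and Bok (0.38) in TKO against wt and Bcl2l2 (-0.05) in TKO against Zmat3-/-. In Zmat3-/- against wt the block turned no direction. It moved Bcl2a1b from 0.13 to 0.33, Bcl2a1d from 0.12 to 0.42, the summed A1 copies from 0.14 to 0.38 and Bok from 0.11 to 0.49.

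Directions of fold changes near 0 turned. With the Xist level as a term, TKO against wt gave -0.00354 for Bcl2, 0.32 for Bcl2a1b, 0.35 for Bcl2a1d, 0.39 for the summed copies and 0.6 for Bok. With 1 surrogate variable Bcl2l2 was 0.00786 there, and with no filter Bcl2l1 was 0.00775 in TKO against Zmat3-/-. Leaving out a mouse gave, in TKO against wt, -0.08 to 0.08 for Bcl2, -0.16 to 0.05 for Bcl2l2, -0.34 to 0.32 for Bcl2a1b, -0.45 to 0.18 for Bcl2a1d, -0.33 to 0.3 for the sum, -0.24 to 0.02 for Bak1 and -0.45 to 0.34 for Bok. In Zmat3-/- against wt it gave -0.07 to 0.1 for Bcl2, -0.17 to 0.04 for Bcl2l2, -0.16 to 0.49 for Bcl2a1b, -0.15 to 0.47 for Bcl2a1d, -0.14 to 0.48 for the sum and -0.28 to 0.5 for Bok. In TKO against Zmat3-/- it gave -0.08 to 0.02 for Bcl2, -0.15 to 0.09 for Bcl2l1, -0.02 to 0.16 for Mcl1, -0.07 to 0.11 for Bcl2l2, -0.42 to 0.15 for Bcl2a1b, -0.44 to 0.14 for the sum, -0.18 to 0.02 for Bax and -0.52 to 0.17 for Bok. Bax against wt and Mcl1 against wt kept their direction in every alternative other than the split by Xist count. Without wt mouse 1, Bax was -0.19 in Zmat3-/- against wt and -0.27 in TKO against wt, Bcl2l1 was -0.08 in both, and Bak1 was -0.02 in Zmat3-/- against wt.

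The split by Xist count, chosen after seeing the data, called 1 member in TKO against wt at high Xist and 3 at each side in Zmat3-/- against wt. It gave 3089 (high) and 400 (low) genes in TKO against wt, 6004 and 3883 in Zmat3-/- against wt, and 377 and 14 in TKO against Zmat3-/-. In TKO against wt the direction turned at high Xist for Bcl2l2 (0.3), and at low Xist for Bcl2 (-0.24), Bcl2l1 (0.07), Bcl2a1b (0.77), Bcl2a1d (1.11), the sum (0.95) and Bak1 (0.23). In Zmat3-/- against wt it turned at high Xist for Mcl1 (-0.01), Bcl2l2 (0.11), Bcl2a1b (-0.27), Bcl2a1d (-0.4), the sum (-0.31) and Bok (-0.61), and at low Xist for Bcl2 (-0.13), Bcl2l1 (0.06), Bax (0.06) and Bak1 (0.16). In TKO against Zmat3-/- it turned at high Xist for Bcl2 (0.13), Bax (0.05) and Bak1 (-0.01), and at low Xist for Bcl2l1 (0.00179) and Bcl2l2 (-0.13). The low-Xist fit of Bok in TKO against wt gave no value because its counts did not pass the filter there.

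With the longest transcript as the length, mean shares moved from 65.4% to 56.7% for Mcl1, 18.4% to 28.4% for Bcl2l1, 49.8% to 41.2% for Bak1 and 49.0% to 57.5% for Bax, so the order of Bax and Bak1 depends on the length used. Intervals were widest for Bok and the A1 copies, and what set their width was not tested.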
